A study of Rattus norvegicus with 12 samples.

Results

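The genes described here are 34 components of the early secretory pathway in the rat choroid plexus, the tissue that makes most of the cerebrospinal fluid. They were taken from a list of 40 named genes, named by function, that covers the translocon, the signal recognition particle, signal peptidase, the oligosaccharyltransferase, cargo receptors and the COPII and COPI coats. The deposited tables carry Ensembl identifiers without symbols and hold 32883 genes each, so a gene was kept where one of the study's supplementary tables pairs its symbol with an identifier. This was so for 32 genes through the study's table of transcribed genes, which as held here starts from the highest light-phase level, and for SSR3 and STT3B only through tables of differentially expressed genes. SSR3 and STT3B are therefore described without a test and left out of every count of calls. SRPRB, KDELR2, SEC23A, SEC31A, COPB2 and SAR1A had no identifier in these tables and were not analysed here.

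Choroid plexus was excised from the lateral and the fourth ventricles of male Sprague-Dawley rats aged 9 weeks, anesthetized with xylazine and ketamine and housed on equal light and dark periods. The light-phase group comprised 6 rats sampled at zeitgeber time 8 h, and the dark-phase group comprised 6 others, sampled at zeitgeber time 20 h and shielded from light. Each library came from the whole tissue of 1 rat and was deposited as TPM (transcripts scaled to a fixed library total), a level adjusted for transcript length. The comparison of the phases asks whether this machinery differs between 8 h after lights on and 8 h after lights off. Only a pair of time points was sampled, so a rhythm cannot be told from a single difference. In whole tissue, a change in the number of cells of a type and a change in RNA per cell cannot be told apart.

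Proteins bound for the plasma membrane or for secretion enter the endoplasmic reticulum (ER) while they are being made. The signal recognition particle brings the ribosome to the Sec61 channel, signal peptidase removes the leader peptide, and the oligosaccharyltransferase transfers a preassembled sugar tree onto asparagine residues of the entering chain. COPII-coated vesicles carry finished cargo toward the Golgi, and COPI-coated vesicles return escaped ER proteins. The TMED (p24) proteins sort cargo for these vesicles, and KDEL receptors pick out the escaped ER proteins for return. The choroid plexus epithelium relies on this route for secreted transthyretin and for the glycosylated transporters of its membranes.

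The libraries carried the transcripts of choroid plexus epithelium. TTR, which encodes transthyretin, took 25.4% to 31.0% of all TPM, the lowest share being in light-phase replicate 2. All 9 epithelial markers examined had an identifier and none was at 0, and 5 of them passed the limma test between the phases (17.7% of all genes tested did), KL, CLIC6 and OTX2 with the higher level in dark and AQP1 and SLC4A5 with the higher level in light. With the covariate described in the next paragraph KL alone passed. Markers of other cells could be checked only in part. The fibroblast genes DCN and PDGFRA summed to 135 to 216 TPM in the light phase and 145 to 228 TPM in the dark phase, the endothelial gene PLVAP lay at 58.5 to 124 and 56.7 to 96.8 TPM, the mural gene RGS5 at 125 to 325 and 136 to 212 TPM, and the erythroid gene HBB at 1406 to 5535 and 839 to 2190 TPM. None of these 5 genes passed the test (limma) and 0 had an unadjusted p under 0.05, and no macrophage, neuronal or glial marker was paired through the table of transcribed genes.

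Another property of the libraries moved with phase. The FPKM sum of a library divided by its TPM sum, which in output of this kind is inverse to the mean effective transcript length, was 0.953 to 0.987 for light-phase libraries and 0.934 to 0.960 for dark-phase ones. This corresponds to a mean length of 1013 to 1050 bases against 1041 to 1071 bases. The phases overlapped in this ratio but differed on average, so its part in a difference between the phases cannot be told apart from the phase itself, and estimates with this FPKM/TPM ratio as a covariate are given beside the results.

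**Figure D1:**
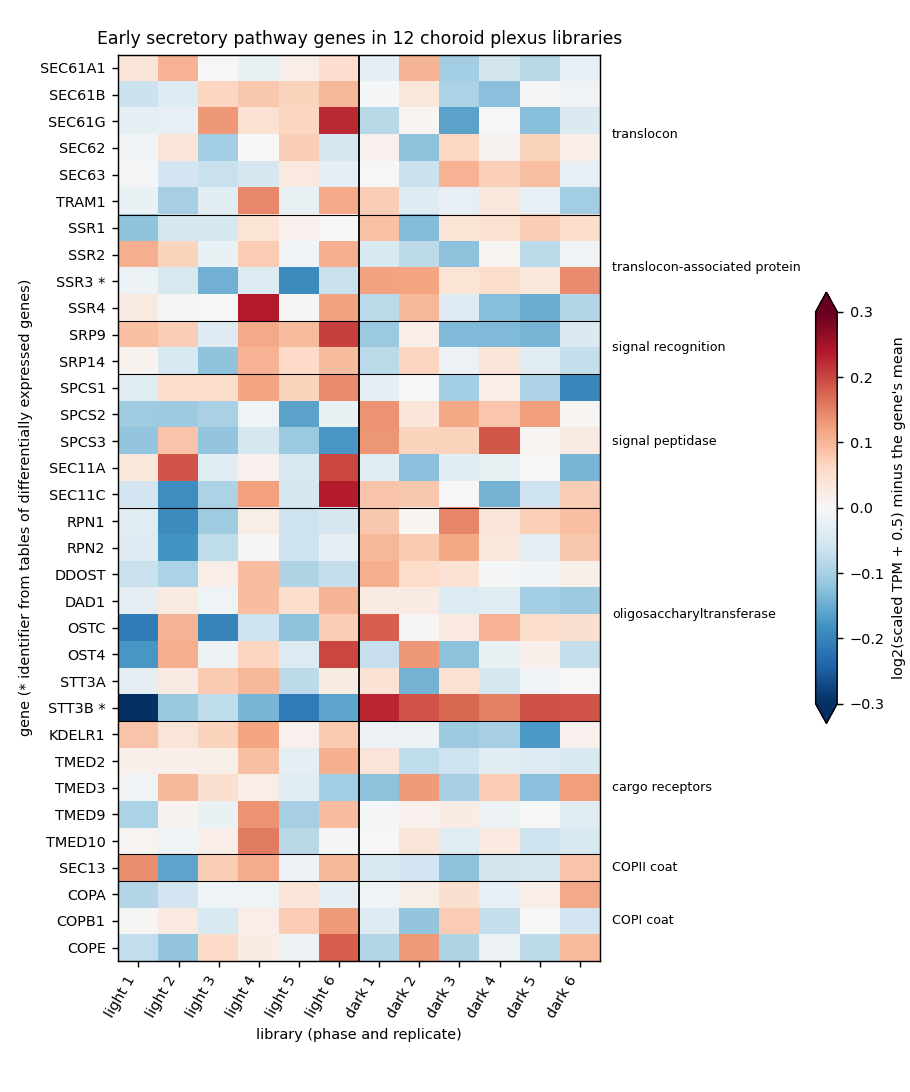
Level of each of the 34 genes (rows, grouped by role) in each of the 12 libraries (columns, light phase left of the line), as log2(scaled TPM + 0.5) minus the mean of that gene. Blocks of 1 colour that fill a phase are seen for STT3B, SSR3 and SPCS2, whereas most rows mix both colours within each phase.

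Of the 32 genes tested, 4 were up-regulated in the dark phase (SPCS2, SPCS3, RPN1 and RPN2), 4 were up-regulated in the light phase (SRP9, SPCS1, SSR2 and KDELR1) and 24 did not pass a false discovery rate of 0.05 over all 12513 genes tested with limma. The 8 calls are 25.0% of the genes, against 17.7% of all genes tested and 23.6% of the 1997 genes paired through the same table of transcribed genes, so the share of calls was near that of the background of similarly abundant genes. By direction, 9.36% of all genes passed upward and 8.38% downward in the dark phase, and 9.06% and 14.6% of the genes paired through that table. The changes were small: the 8 called genes differed by 6.20% to 14.0% in mean TPM, and their median absolute log2 fold change was 0.14, against 0.28 over all called genes. The median log2 fold change (dark minus light) was -0.03 over the 32 genes, -0.01 over all genes tested and -0.04 over the genes paired through the table of transcribed genes.

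The split by direction depended on the scaling between libraries. With TPM as deposited 4 genes were called higher in dark and 1 in light, and with the 20 most abundant genes removed the counts were 5 and 1. When the FPKM/TPM ratio entered as covariate, 0 of the 32 genes passed the limma test and 5 had an unadjusted p under 0.05, while 2.74% of all genes passed, 1.71% upward and 1.03% downward in the dark phase. Without the covariate 13 of the 32 had an unadjusted p under 0.05. The phases did not overlap in TPM as deposited for 3 of the 32 genes (SPCS2, RPN1 and RPN2). By the same measure they did not overlap for 8.26% of all genes tested and 13.4% of those paired through the table of transcribed genes. On the scaled values used in the test RPN1 and RPN2 overlapped.

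**Figure D2:**
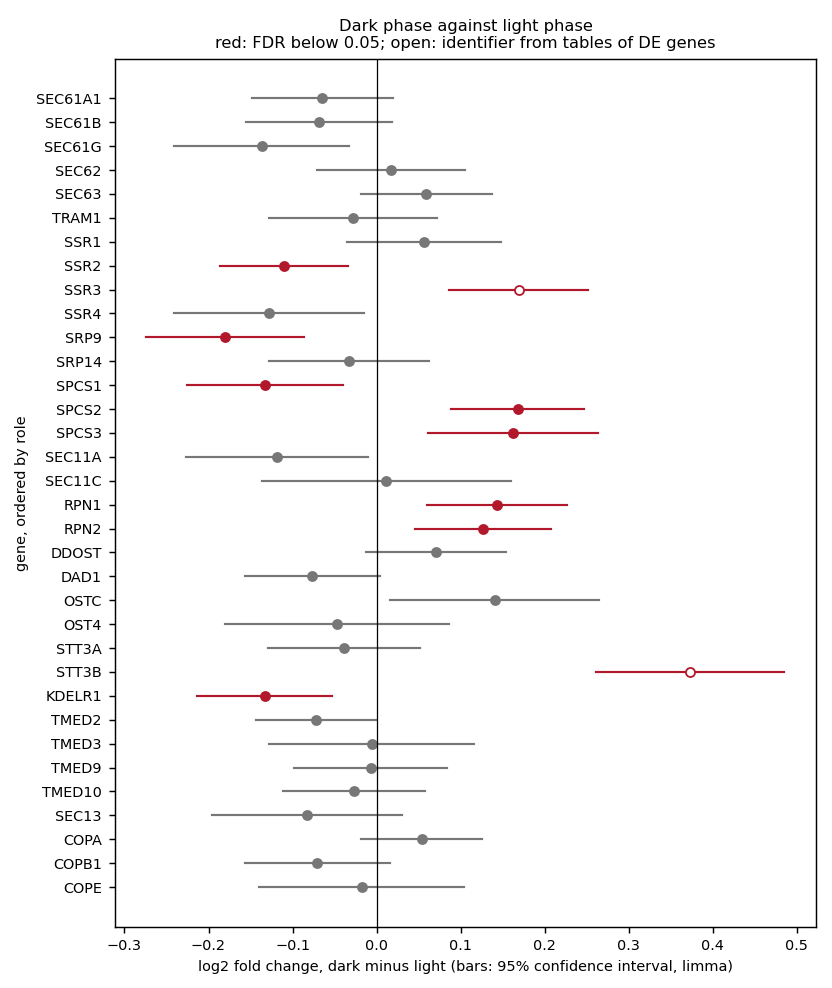
Log2 fold change, dark phase minus light phase, with its 95% confidence interval from limma for each of the 34 genes, ordered by role. The 8 tested genes past the threshold are filled red and lie on both sides of 0, between -0.18 and 0.17, and the open symbols are SSR3 and STT3B, which were not tested.

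The channel itself gave no call in the limma fit. SEC61A1, SEC61B and SEC61G form the pore through which the nascent chain passes, and SEC62, SEC63 and TRAM1 assist its opening or the lateral exit of chains into the membrane. None of these 6 passed the limma test, and 1 (SEC61G) had an unadjusted p under 0.05. SEC61A1, the pore-forming subunit, ranged from 48.5 to 58.8 TPM (median 52.7) in the light phase and from 49.1 to 56.0 TPM (median 51.1) in the dark phase, giving a log2 fold change of -0.06 (SE 0.04, limma FDR 0.284). SEC61B, a tail-anchored subunit, ranged from 202 to 218 TPM (median 214) in light and from 190 to 212 TPM (median 211) in dark, a log2 fold change of -0.07 (SE 0.04, limma FDR 0.268). The phases overlapped for both subunits.

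SEC61G, the remaining small subunit, was the channel gene nearest to the threshold. It ranged from 292 to 342 TPM (median 310) in the light phase and from 272 to 301 TPM (median 293) in the dark phase. The log2 fold change was -0.14 (SE 0.05, limma FDR 0.0685). SEC61G passed in 2 of 24 alternatives, at a limma FDR of 0.0446 without light-phase replicate 2 and 0.0440 with array weights. With the ratio covariate the estimate was -0.06 (limma FDR 0.730). By mean level, SEC61G stood at 302 TPM, SEC61B at 209 TPM and SEC61A1 at 52.4 TPM. SEC62, SEC63 and TRAM1 lay between 75.3 and 99.4 TPM in every library, with log2 fold changes of 0.02, 0.06 and -0.03.

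The translocon-associated protein complex (SSR1 to SSR4) sits beside the channel and helps it to accept certain leader peptides. SSR2 ranged from 109 to 121 TPM (median 113) in the light phase and from 103 to 112 TPM (median 108) in the dark phase. Its log2 fold change was -0.11 (SE 0.04, limma FDR 0.0462), with overlap between the phases. The call was kept in 3 of 12 fits that each left out 1 library, with an FDR of up to 0.102 in the others. SSR3 went the other way: it ranged from 40.5 to 47.3 TPM (median 43.2) in light and from 48.2 to 52.6 TPM (median 49.7) in dark, without overlap. SSR1 (log2 fold change 0.06) and SSR4 (-0.13, limma FDR 0.115) did not pass.

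SRP9 and SRP14 form the heterodimer of the signal recognition particle that slows elongation until the ribosome reaches the membrane. SRP9 ranged from 62.8 to 72.5 TPM (median 68.9) in the light phase and from 58.3 to 65.1 TPM (median 59.9) in the dark phase. Its mean fell by 10.7% in the dark phase, giving a log2 fold change of -0.18 (SE 0.04, limma FDR 0.0127), the largest decrease among the 32 genes. The call held without any one library, at an FDR of at most 0.0310. With the ratio covariate the estimate was -0.15 (limma FDR 0.271).

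SRP14 did not show the same difference. It lay at 157 to 177 TPM (median 173) in the light phase and 163 to 177 TPM (median 169) in the dark phase, giving a log2 fold change of -0.03 (SE 0.04, limma FDR 0.656). The SRP9 to SRP14 ratio, which does not depend on the scaling of a library, ranged from 0.382 to 0.413 in light and from 0.337 to 0.386 in dark. The phases overlapped by a narrow margin. The ratio was lower in the dark phase (mean log2 difference -0.15, two-sided exact permutation test p = 0.00433, 0.0173 adjusted over the 4 ratios tested). It was computed from the same libraries as the SRP9 call and is not independent support for that call.

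Signal peptidase was the complex with the most calls, 3 of its 5 genes, and they did not share a direction. The share was 17.7% over all genes tested and 23.6% over those paired through the table of transcribed genes. A complex of 5 genes is too small to compare with these shares. SPCS2 and SPCS3 are noncatalytic subunits, SPCS3 being needed for activity, and SPCS1 is a small accessory subunit. SPCS2 ranged from 57.7 to 63.1 TPM (median 61.2) in the light phase and from 66.6 to 72.8 TPM (median 70.0) in the dark phase. Every dark-phase library thus lay above every light-phase library. The log2 fold change was 0.17 (SE 0.04, limma FDR 0.00742), the largest increase among the 32 genes, and the call was kept in 12 of 12 fits that each left out 1 library. With the ratio covariate the estimate was 0.19 and its SE rose to 0.06 (limma FDR 0.110).

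SPCS3 ranged from 59.2 to 76.0 TPM (median 63.0) in the light phase and from 69.8 to 77.4 TPM (median 72.1) in the dark phase. The single light-phase value within the dark-phase range was that of replicate 2, 76.0 TPM, the next highest light-phase value being 64.1 TPM. The log2 fold change was 0.16 (SE 0.05, limma FDR 0.0299). It was 0.20 without light-phase replicate 2 (limma FDR 0.00478), and the call was lost without light-phase replicate 1, 3, 5 or 6 or dark-phase replicate 1, 3 or 4, at an FDR of up to 0.0653. The estimate was 0.14 with the ratio covariate (limma FDR 0.359).

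SPCS1 was lower in the dark phase. It ranged from 174 to 190 TPM (median 183) in the light phase and from 156 to 177 TPM (median 171) in the dark phase, with overlap. The log2 fold change was -0.13 (SE 0.04, limma FDR 0.0482), it was kept in 3 of 12 fits that each left out 1 library, and with the ratio covariate it came to -0.03 (limma FDR 0.838). The SPCS2 to SPCS1 ratio lay between 0.316 and 0.352 in light and between 0.380 and 0.432 in dark, and the SPCS3 to SPCS1 ratio between 0.313 and 0.399 in light and between 0.408 and 0.455 in dark. Neither ratio overlapped between the phases; both were examined after the values of the genes were known and were not tested.

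The catalytic subunits of signal peptidase, SEC11A and SEC11C, gave no call in the limma fit. SEC11A ranged from 59.4 to 74.6 TPM (median 63.1) in light and from 57.1 to 63.4 TPM (median 61.5) in dark, a log2 fold change of -0.12 (SE 0.05, limma FDR 0.127). SEC11C ranged from 254 to 318 TPM (median 267) in light and from 249 to 299 TPM (median 286) in dark, a log2 fold change of 0.01 (SE 0.07, limma FDR 0.932). SEC11C was thus the more abundant of the pair in every library, with a SEC11A to SEC11C ratio of 0.210 to 0.293 in light and 0.195 to 0.246 in dark. The ratio did not pass the exact permutation test (mean log2 difference -0.13, p = 0.175, adjusted p = 0.289), and without light-phase replicate 2 the difference was -0.07.

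**Figure D3:**
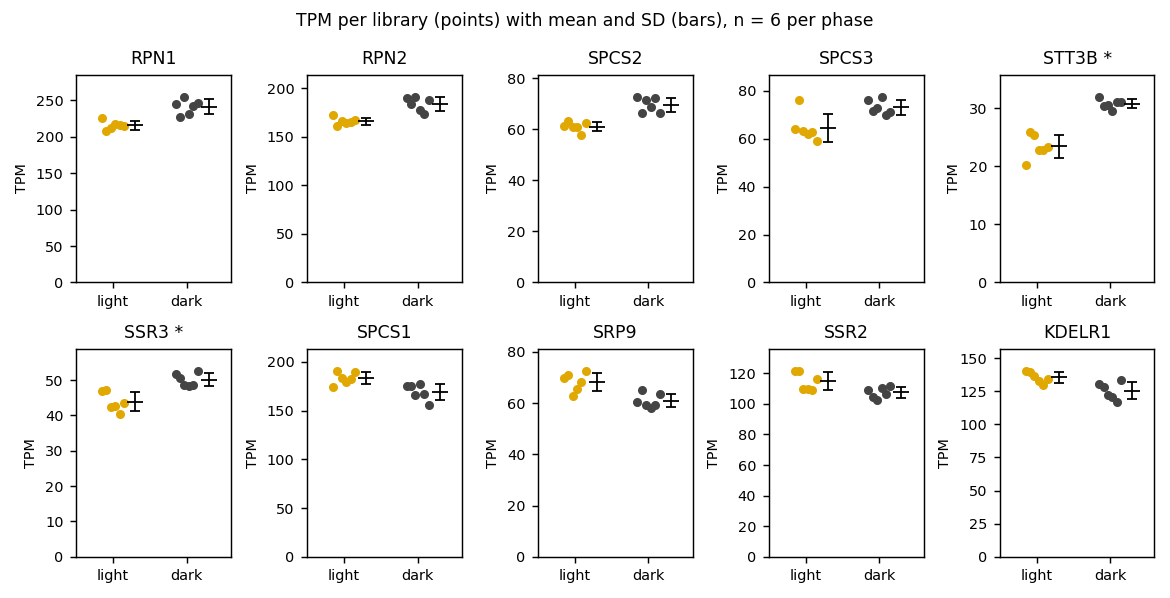
TPM in each library (points, 6 per phase) with the mean and SD (bars) for the 8 genes past the threshold and for STT3B and SSR3 (asterisks, not tested), on axes that start at 0. In TPM as deposited the phases are separate for SPCS2, RPN1, RPN2, STT3B and SSR3 and overlap for the other 5 genes. On the scaled values used in the test RPN1 and RPN2 overlap as well. On the scale shown each shift is small beside the level.

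Of the tested genes of the oligosaccharyltransferase, the ribophorins alone were called. STT3B, which was not tested, differed more and is described below. RPN1 and RPN2 are the large shared subunits around which the enzyme is built, RPN1 also presenting some membrane protein substrates. RPN1 ranged from 208 to 226 TPM (median 215) in the light phase and from 228 to 255 TPM (median 244) in the dark phase. RPN2 ranged from 161 to 173 TPM (median 166) in light and from 173 to 191 TPM (median 186) in dark. In TPM as deposited both genes were higher in all dark-phase libraries than in any light-phase library, for RPN2 by a margin of under 1 TPM. On the scaled log2 values used in the test, the phases overlapped for both. Relative to the mean of the gene, the highest light-phase and lowest dark-phase values were 0.0179 and 0.0048 for RPN1. For RPN2 they were 0.004 and -0.0295.

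The log2 fold change of RPN1 was 0.14 (SE 0.04, limma FDR 0.0220) and that of RPN2 was 0.13 (SE 0.04, limma FDR 0.0333). The call of RPN1 was lost without dark-phase replicate 3 (limma FDR 0.0510), and that of RPN2 without light-phase replicate 3 or 5 or dark-phase replicate 1, 2, 3 or 6, at an FDR of up to 0.0734. With the ratio covariate the estimates were 0.18 and 0.16, with standard errors of 0.06 for both (limma FDR 0.148 and 0.178). The RPN1 to RPN2 ratio ranged from 1.28 to 1.32 in light and from 1.24 to 1.40 in dark and did not differ by the exact permutation test (mean log2 difference 0.02, p = 0.535, adjusted p = 0.535).

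The other noncatalytic subunits did not pass. DDOST had a log2 fold change of 0.07 (95% interval -0.01 to 0.15), DAD1 of -0.08 (-0.16 to 0.00) and OST4 of -0.05 (-0.18 to 0.09). OSTC, which links the enzyme to the translocon, had one of 0.14 (0.02 to 0.27, limma FDR 0.115). By mean level the order was OST4 at 455 TPM, DAD1 at 371 TPM, RPN1 at 229 TPM, RPN2 at 175 TPM, DDOST at 161 TPM, OSTC at 99.5 TPM, STT3A at 65.4 TPM and STT3B at 27.1 TPM, so both catalytic subunits were the least abundant transcripts of the set. Over the 12 libraries the ranges of RPN2 and DDOST overlapped, and those of the other neighbours in this order did not.

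STT3A and STT3B are the alternative catalytic subunits. STT3A complexes dock on the translocon and glycosylate chains as they enter, whereas STT3B complexes act on sites that were skipped. STT3A ranged from 61.2 to 69.4 TPM (median 65.4) in the light phase and from 58.9 to 68.4 TPM (median 66.1) in the dark phase, giving a log2 fold change of -0.04 (95% interval -0.13 to 0.05, limma FDR 0.567). STT3B ranged from 20.2 to 25.8 TPM (median 23.1) in light and from 29.6 to 32.0 TPM (median 30.8) in dark. Its phases were well apart, with a log2 fold change of 0.37, and 0.38 with the ratio covariate; since its identifier comes from tables of differentially expressed genes, this is a description. The STT3A to STT3B ratio accordingly lay at 2.68 to 3.22 in the light phase and 1.93 to 2.23 in the dark phase, without overlap and likewise not tested.

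**Figure D4:**
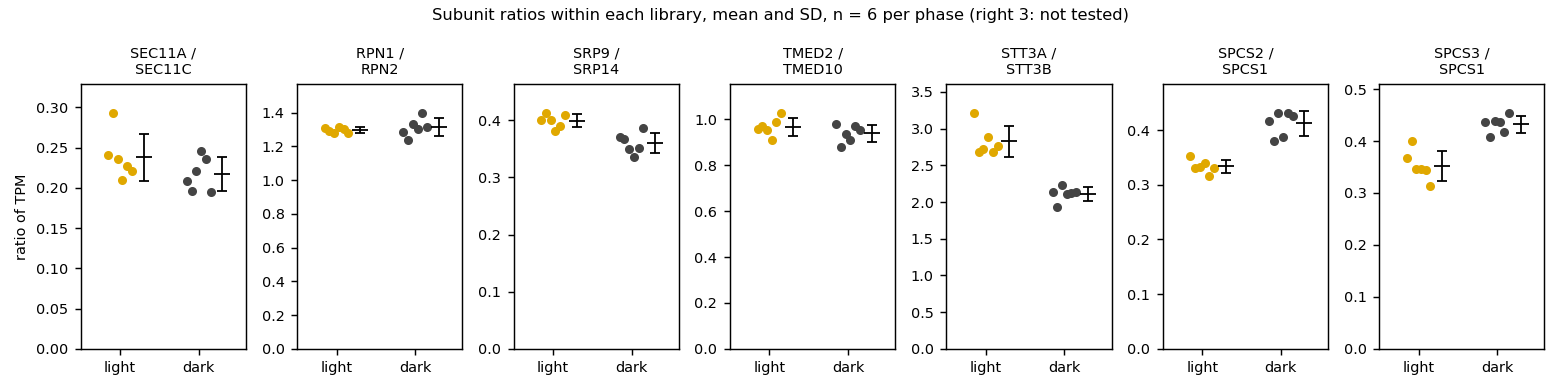
Ratio of TPM of subunit pairs within each library (points, 6 per phase) with the mean and SD (bars). The first 4 pairs were tested, and SRP9 to SRP14 alone passed (0.382 to 0.413 in light, 0.337 to 0.386 in dark). These pairs also hold called genes (SRP9, RPN1 and RPN2), so the ratio test of SRP9 to SRP14 is not independent of the SRP9 call. The last 3, which include a gene chosen or seen for its difference, were not tested.

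Among the sorting receptors, KDELR1 passed the test. It recognises escaped ER residents in the Golgi and returns them. KDELR1 ranged from 130 to 140 TPM (median 135) in the light phase and from 117 to 134 TPM (median 125) in the dark phase, with a small overlap. The log2 fold change was -0.13 (SE 0.04, limma FDR 0.0252), and the call was lost without light-phase replicate 4, dark-phase replicate 3 or dark-phase replicate 4, at an FDR of up to 0.0564. With the ratio covariate the estimate was -0.15 (limma FDR 0.206).

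The TMED cargo receptors TMED2, TMED3, TMED9 and TMED10 did not pass. Their log2 fold changes were -0.07 for TMED2 (limma FDR 0.155), -0.01 for TMED3, -0.01 for TMED9 and -0.03 for TMED10. TMED2 and TMED10, which work as partners, had mean levels of 210 and 221 TPM. The TMED2 to TMED10 ratio was close to 1 in every library, at 0.911 to 1.03 in light and 0.880 to 0.981 in dark, and did not pass the exact permutation test (mean log2 difference -0.04, p = 0.217, adjusted p = 0.289).

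The coat genes among the 32 genes tested gave no call in the limma fit. COPZ1, a COPI coat subunit outside this list, was called (log2 fold change -0.20, limma FDR 0.00860) and is described below. SEC13, the one COPII coat gene among the 32, had a log2 fold change of -0.08 (95% interval -0.20 to 0.03, limma FDR 0.308) at 66.7 to 80.4 TPM. COPA, COPB1 and COPE of the COPI coat had log2 fold changes of 0.05, -0.07 and -0.02, with means of 54.2, 59.4 and 135 TPM, and none had an unadjusted p under 0.05 in the limma fit. Over all 24 genes without a call, the log2 fold changes lay between -0.14 and 0.14, and for 20 of them the 95% interval lay within -0.2 and 0.2. The bounds of all 24 intervals lay between -0.24 and 0.27, so larger shifts of any one of them fell outside its interval.

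Other genes of the pathway were counted from lists that were taken whole. Of 128 genes in 7 lists 42 were paired through the table of transcribed genes, and 18 more that appear only in tables of differentially expressed genes were left out. The 128 include SRPRB, KDELR2, SEC23A, SEC31A, COPB2 and SAR1A, which the list of 40 also names and which had no identifier. Of the 42 genes 8 passed the test, 3 of them up in dark and 5 up in light, which is 19.0% against the 17.7% and 23.6% given above. None passed limma with the ratio covariate, where 9 had an unadjusted p under 0.05 against 17 without it, and their median log2 fold change was -0.01.

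Of 13 other genes of ER entry 2 passed: NOMO1, a translocon-associated membrane protein, rose in the dark phase from 87.2 ± 4.22 to 99.6 ± 3.76 TPM (mean and SD, n = 6; log2 fold change 0.17, limma FDR 0.00592), and TMCO1 fell from 110 ± 3.50 to 99.6 ± 2.92 TPM (-0.16, limma FDR 0.00393). Of 7 genes of glycan trimming and related steps 2 passed, both higher in the dark phase. These were GANAB, the catalytic subunit of glucosidase II (0.11, limma FDR 0.0483), and LMAN2, a lectin of the early secretory route (0.11, limma FDR 0.0308). The call of GANAB was kept in 2 of 12 fits that each left out 1 library (FDR up to 0.105) and that of LMAN2 in 6 of 12 (up to 0.0678). None of 4 genes that assemble the dolichol-linked sugar passed limma, and 2 of them had an unadjusted p under 0.05.

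Of 6 other retrieval and cargo genes YIPF5 passed, at 133 ± 3.86 TPM in light and 114 ± 6.53 TPM in dark (log2 fold change -0.25, limma FDR 0.00260). Of 6 other COPI genes 3 passed, all lower in the dark phase: ARF4, a small GTPase, at 270 ± 11.7 and 240 ± 7.18 TPM (-0.19, limma FDR 0.00135), COPZ1, a coat subunit, at means of 89.6 and 79.2 TPM (-0.20, limma FDR 0.00860), and ARF5 (-0.15, limma FDR 0.0497), whose call was kept in 3 of 12 fits that each left out 1 library (FDR up to 0.106). With the ratio covariate COPZ1 and ARF5 came to -0.07 and -0.06, whereas ARF4 and YIPF5 stayed at -0.19 and -0.20. None of 3 other COPII genes and none of 3 regulators of secretory capacity passed limma, with 1 gene of each list at an unadjusted p under 0.05.

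**Figure D5:**
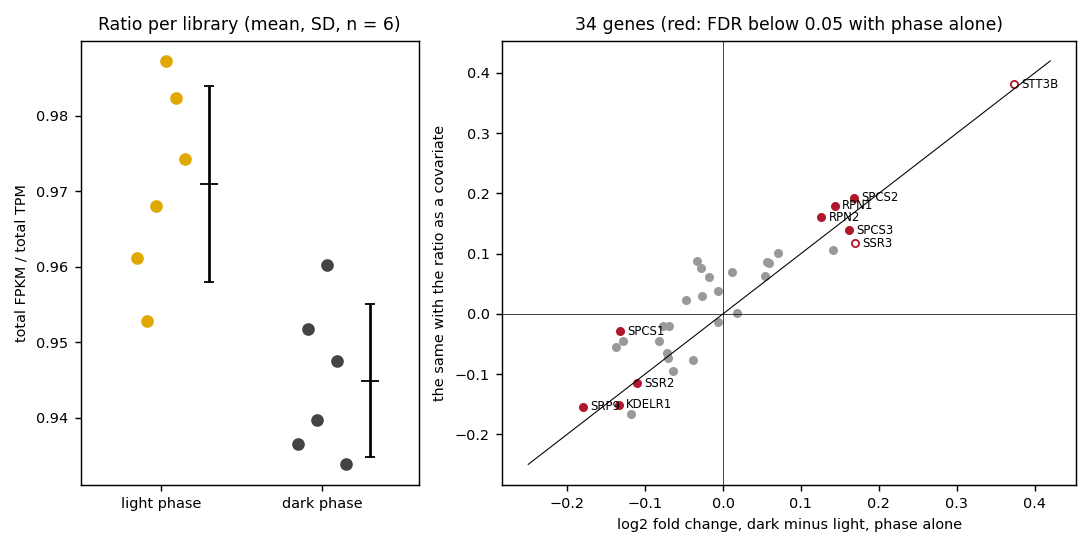
Left, FPKM sum over TPM sum of every library (points; bars, mean and SD, n = 6 per phase), higher on average in the light phase with overlap. Right, log2 fold change of the 34 genes with the ratio as a covariate against that with phase alone (diagonal, equal values; red, FDR below 0.05 with phase alone; open, not tested): SPCS1 moves from -0.13 to -0.03, and the other 7 called genes keep estimates of at least 0.11 in size.

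Adding the ratio therefore changed the called genes in unlike ways. For SPCS2, RPN1, RPN2, KDELR1 and SSR2 the estimate was as large or larger with the covariate. The loss of the call came with a larger standard error and with fewer passing genes among all tested (2.74% against 17.7%). SPCS2 had an unadjusted limma p of 0.0067 with the covariate (FDR 0.110), whereas SSR2 passed with phase alone at 0.00794. For SPCS3 and SRP9 the estimate shrank to 0.14 and -0.15, and for SPCS1 it was near 0.

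Promoter sequences were examined for letters that regulators of secretory capacity and of the clock are known to bind. RefSeq (GRCr8) gave a window of 300 bases, 250 before and 50 after the start, for 32 of the 34 genes, not the same 32 as were tested, and for 27457 genes in all. Both strands were searched, and a match is a description of letters only. CCACG, one part of the ER stress response element, was in 18 of 32 promoters (56.2%) and in 32.5% of all promoters, and CCAAT was in 14 (43.8%) and in 37.7%. The complete ER stress response element was in none, and in 0.0765% of all promoters. The E-box CACGTG was in 3 (SSR1, SEC11C and TMED10; 9.38% against 6.65%), the cyclic AMP element TGACGTCA in 1 (COPE; 3.12% against 1.91%), and the D-box forms TTATGTAA and TTACGTAA in none (0.881% and 0.127% of all promoters).

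The 250 bases before the start are shown for the catalytic paralogs STT3A and STT3B, whose values are given above, and for the called genes with the smallest p in each direction, SPCS2 and SRP9. Capitals mark CCACG and CCAAT on either strand, CGTGG and ATTGG being their reverse complements.
STT3A (chr8:44671961-44672210, minus strand): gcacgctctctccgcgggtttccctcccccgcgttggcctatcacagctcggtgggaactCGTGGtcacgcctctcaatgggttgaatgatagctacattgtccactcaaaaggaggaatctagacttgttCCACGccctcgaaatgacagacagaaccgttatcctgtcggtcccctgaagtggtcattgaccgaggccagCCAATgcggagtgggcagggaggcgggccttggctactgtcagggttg
STT3B (chr8:123872180-123872429, minus strand): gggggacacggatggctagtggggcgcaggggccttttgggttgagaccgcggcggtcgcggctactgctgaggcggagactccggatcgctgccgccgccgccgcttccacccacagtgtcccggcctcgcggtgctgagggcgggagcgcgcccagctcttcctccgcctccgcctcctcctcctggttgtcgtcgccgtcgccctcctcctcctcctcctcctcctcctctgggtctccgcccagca
SPCS2 (chr1:163595270-163595519, minus strand): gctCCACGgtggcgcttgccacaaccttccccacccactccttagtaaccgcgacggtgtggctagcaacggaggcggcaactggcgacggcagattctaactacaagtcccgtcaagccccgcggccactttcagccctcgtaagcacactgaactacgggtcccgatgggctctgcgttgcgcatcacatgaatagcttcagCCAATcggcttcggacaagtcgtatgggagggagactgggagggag
SRP9 (chr13:96364003-96364252, plus strand): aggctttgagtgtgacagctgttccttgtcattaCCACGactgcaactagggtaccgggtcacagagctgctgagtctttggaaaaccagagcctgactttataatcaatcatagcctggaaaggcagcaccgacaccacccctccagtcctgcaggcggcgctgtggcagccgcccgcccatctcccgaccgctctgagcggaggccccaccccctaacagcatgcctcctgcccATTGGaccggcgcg
The STT3A window held CCACG at 2 places and CCAAT at 1, and the STT3B window held none of the letters searched. SPCS2, which was higher in the dark phase, and SRP9, which was higher in the light phase, each held CCACG and CCAAT. Too few sequences are shown to relate these letters to direction, and such a relation was not tested.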

How the data were processed

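Per the authors, total RNA was sequenced as paired reads, aligned to Rnor_6.0 with STAR 2.7.9a and quantified per gene with RSEM 1.3.3. The authors deposited TPM and FPKM for each library, not counts. The paper states a sequencing output but no read count per library, so the depth of each library is unknown. No interval for counting error was given. The authors' own test used DESeq2. Symbols were paired with identifiers through the study's supplementary tables, whose values were not used. Genes and lists were chosen with earlier results of these data known.

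TPM was scaled by a trimmed mean of ratios to the mean profile (30% of ratios and 5% of levels trimmed at each end). Genes averaging 1 TPM or more were tested on log2(scaled TPM + 0.5) with limma 3.58.1 in R 4.3.3 (trend, 6 against 6 libraries, no covariate, Benjamini-Hochberg FDR 0.05); fold changes on this scale slightly understate those of low genes. Values named as TPM are as deposited. The fit was tested on simulated data with planted changes larger than those of the called genes. That run does not show how often changes of their size are found. Ratios of 4 subunit pairs were tested with two-sided exact permutation tests. Named with full values were the called genes, the catalytic and channel subunits and these ratios, and of each other list the 3 called genes with the smallest p. Alternatives were other scalings, pseudocounts, filters, covariates, variance settings and leaving out each library. No library pair had identical values. The FPKM/TPM ratio of each library was computed from the deposited values. RSEM divides reads shared by near-identical genes by estimate, which was not examined. Figures and summaries used Python 3.11.15, pandas 2.3.3, numpy 2.4.6 and matplotlib 3.10.9.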

Additional observations from a re-analysis of the deposited data

Results flagged for a closer look

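In 82 groups of 6 values (34 genes and 7 ratios in each phase), 4 held a highest or lowest value that stood apart by Dixon's criterion, where chance at 1 in 20 gives 4.1. SSR1 in dark-phase replicate 2 was 64.7 TPM, the other 5 libraries lying between 72.8 and 76.8 TPM. SRP14 in light-phase replicate 3 was 157 TPM, the others lying between 172 and 177 TPM. SPCS3 in light-phase replicate 2 was 76.0 TPM, the others lying between 59.2 and 64.1 TPM. The SEC11A to SEC11C ratio in light-phase replicate 2 was 0.293, the others lying between 0.210 and 0.240. Light-phase replicate 2 also had the lowest share of TTR (25.4%) and the lowest limma array weight (0.412), and without it 8 of the 32 genes were called, 5 with the higher level in dark.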

How the results depend on the processing

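The number of genes called moved from 8 of 32 to 5 with TPM as deposited, to 5 with no variance trend, and to 0 with the FPKM/TPM ratio as covariate. Calls higher in the light phase went from 4 to 1 with TPM as deposited and without the 20 most abundant genes, and to 2 with robust variance or no trend. With the covariate 0 genes were called in either direction, 343 of all genes were called, 0 of the other pathway genes, and the median log2 fold change of the 32 was 0.012. Without a trend 5 other pathway genes were called. Leaving out each library gave 2 to 8 calls, 1 to 5 higher in dark and 1 to 4 higher in light, 1704 to 2278 over all genes, 5 to 9 other pathway genes and a median of -0.04 to -0.02; the lowest count, 2, was without dark-phase replicate 3. The SRP9 to SRP14 difference was -0.17 to -0.13 (exact permutation adjusted p 0.00866 to 0.0260). SRP9 and SPCS2 were called in 23 of 24 alternatives, RPN1 in 22, KDELR1 in 17, SPCS3 in 16, RPN2 in 15, and SSR2 and SPCS1 in 8 each. No estimate of these 8 genes changed sign. Apart from the smaller samples of the fits that left out a library, the cause of these shifts was not tested.

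With the replicate number as a block 4 of the 32 genes were called, 3 higher in dark and 1 higher in light. Of the other pathway genes 5 were called, GANAB (limma FDR 0.137), LMAN2 (0.0901) and ARF5 (0.114) being lost. The SRP9 to SRP14 difference was -0.15 (exact sign-flip permutation p = 0.0312, adjusted p = 0.125). That p is the smallest that 6 sign flips can give. With the other ratios at p of 0.25 or more by the same test, the adjusted p could not be lower. The numbers did not pair the libraries: correlations of same-numbered deviations were -0.11 to 0.05, and none was highest for its own number.

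The depth of each library is unknown, rats were sampled at only 2 times, and 6 of 40 genes had no identifier. Pairing through a table that starts from the highest light-phase level favours genes abundant in that phase. A p that misses the threshold does not show equal levels.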
